A study of Mus musculus with 8 samples.

Results

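The 44 collagen genes described here are the genes of the deposited table whose symbol has the form of a collagen alpha chain, Col followed by the number of the collagen type, the letter a and the number of the chain. They were found among 47706 rows, and each symbol stood for a single row. RNA sequencing had been performed on primary osteoblasts from the calvaria, the flat bones of the skull, which the study's methods describe as isolated from neonatal mice. Cultures were differentiated for 7 days and then received PTH, the parathyroid hormone fragment that raises bone formation when given intermittently, or vehicle for 24 hours, with 4 samples in each group. Both groups carry the prefix Con in their sample names, which the labels do not explain, and no genotype or other agent is given for either. The labels call the culture conditions adipogenic, whereas the methods describe osteogenic medium and a period of serum starvation before the hormone was added. Nothing states whether the 4 samples of a group came from separate preparations of cells, so p-values measure the spread between these samples, which may be technical.

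Collagens are the triple-helical proteins of the extracellular matrix, and each molecule is wound from alpha chains encoded by separate genes. Fibrillar collagens form the banded fibrils that give bone its tensile strength, with type I collagen as the main protein of bone matrix and type V collagen as a regulator of fibril width. FACIT collagens sit on the surface of those fibrils, whereas type IV chains form the sheets of basement membranes, type VI chains form beaded filaments around cells, and types VIII and X form short-chain networks. In osteoblasts, collagen output is part of the differentiated state, and PTH is known for acting on bone matrix genes in ways that depend on dose and timing.

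Promoter sequences from RefSeq (GRCm38.p6) were searched for letters of common promoter elements. They were available for 35 of the 44 collagen genes, in 38 windows that hold the 250 bases before an annotated transcript start. Windows are shown for Col27a1 and Col7a1, which increased with PTH, and for Col3a1 and Col5a1, abundant fibrillar chains that did not pass the test, because none of these windows overlaps an annotated exon. All lie on the plus strand, and capitals mark the motif letters found on either strand.
Col27a1, chr4:63215162-63215411: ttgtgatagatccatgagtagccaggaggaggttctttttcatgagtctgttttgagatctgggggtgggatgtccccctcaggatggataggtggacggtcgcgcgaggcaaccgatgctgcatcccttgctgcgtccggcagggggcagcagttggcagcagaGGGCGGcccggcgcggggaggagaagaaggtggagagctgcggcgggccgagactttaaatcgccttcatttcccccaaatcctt
Col7a1, chr9:108953336-108953585: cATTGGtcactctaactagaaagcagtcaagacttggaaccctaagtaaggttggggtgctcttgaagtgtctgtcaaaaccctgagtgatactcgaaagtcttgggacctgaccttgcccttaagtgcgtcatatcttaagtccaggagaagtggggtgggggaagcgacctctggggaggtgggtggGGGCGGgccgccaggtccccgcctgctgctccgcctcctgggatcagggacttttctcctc
Col3a1, chr1:45311288-45311537: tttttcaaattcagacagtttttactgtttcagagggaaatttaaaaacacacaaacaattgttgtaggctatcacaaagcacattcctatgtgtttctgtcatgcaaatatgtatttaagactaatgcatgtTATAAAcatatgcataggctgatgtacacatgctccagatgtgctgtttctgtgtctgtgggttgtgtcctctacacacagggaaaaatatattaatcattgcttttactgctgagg
Col5a1, chr2:27886175-27886424: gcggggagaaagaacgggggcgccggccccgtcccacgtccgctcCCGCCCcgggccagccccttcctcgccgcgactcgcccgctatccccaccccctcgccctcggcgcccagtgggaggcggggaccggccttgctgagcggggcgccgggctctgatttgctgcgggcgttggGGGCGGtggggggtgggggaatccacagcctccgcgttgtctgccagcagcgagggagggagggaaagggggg
The capitals in the Col27a1 window are a GC box (GGGCGG) that begins 85 bases before the start. The window itself falls within an intron of a longer annotated Col27a1 transcript. Col7a1 held a CCAAT box read on the minus strand 249 bases before the start and a GC box at 61 bases. The Col3a1 window held TATAAA at 117 bases and no GC box, whereas Col5a1 held a GC box at 205 bases, on the minus strand, and another at 73 bases.

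Across all collagen windows, the GC box was present for 21 of 35 genes, in 22 of the 38 windows, and it was present in 32.7% of the 32851 mouse windows of the same length. CCAAT was found for 13 collagen genes (33.8% of all windows held it), TATAAA for 5 (12.4%), the RUNX core TGTGGT for 3 (14.0%) and the AP-1 motif TGANTCA for 1, Col6a1 (6.75%). The full cAMP response element TGACGTCA, the letters bound by CREB, which acts downstream of the PTH receptor, was found in 0 of the 38 collagen windows and in 1.55% of all windows. Both strands were searched, and a missing match says only that those letters are not in that window.

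Total counts ranged from 33605610 to 56090654 per sample. The deepest and shallowest libraries were PTH replicates 1 and 2. Counts were scaled by edgeR's TMM factors and are given as CPM, counts per 1000000 of the scaled library total, with the 4 values of a group in the order of replicates 1 to 4. Of 16736 genes that passed the filter on low counts, 45.8% differed between PTH and vehicle by edgeR's quasi-likelihood test at a Benjamini-Hochberg adjusted p under 0.05, with 23.3% higher and 22.5% lower. Adjusted p-values below come from that test and are adjusted over all genes tested, unless another test is named. Tnfsf11, the gene for RANKL and a PTH target, served to check the labels. Its 4 vehicle samples lay between 0.987 and 1.79 CPM and its 4 PTH samples between 115 and 157 CPM. Osteoblast markers were abundant, with Sparc at 16552 CPM with PTH, and their list is described with the gene groups below.

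Few collagen genes passed the test, and those that did were higher with PTH. Of the 44 genes, 42 passed the filter and were tested, and 6 of these (14.3%) differed, with 6 higher and 0 lower, a share below the 45.8% of all genes tested. The 6 were the fibrillar chains Col27a1 and Col2a1, the FACIT chains Col19a1 and Col16a1, the anchoring fibril chain Col7a1 and the multiplexin Col18a1. At an unadjusted p under 0.05, 6 were higher and 1, Col13a1, was lower. DESeq2, run as an alternative, called 6 higher and 1 lower, against 19.8% higher, 18.2% lower and 38.0% in either direction among all genes it tested. In the same 6 genes, and in 0 others, the 4 PTH samples did not overlap the 4 vehicle samples, whereas 43.0% of all genes tested showed no overlap (21.2% with PTH above and 21.8% with PTH below). Where the mean was 50 CPM or more, 57.4% of 4066 differed, compared with 4 of 26 collagen genes.

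The changes that passed the test were small. No collagen gene changed by 1 or more on the log2 scale, a size that, with an adjusted p under 0.05, was reached by 7.36% of all genes tested in the upward and 3.88% in the downward direction. The median absolute log2 fold change was 0.13 for the 42 tested collagen genes and 0.35 for all genes tested. The median signed log2 fold change was 0.03 for collagen genes and 0.0 for all genes. A limit of 1.5-fold was chosen, after the values were seen, to describe how tightly the changes were bounded. The 95% confidence interval lay within 1.5-fold in both directions for 27 collagen genes, 26 of which were among the 36 that did not pass the test, and for 41.8% of all genes tested. The width of the interval was similar, with a median of 0.55 on the log2 scale for collagen genes and 0.52 for all genes.

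**Figure D1:**
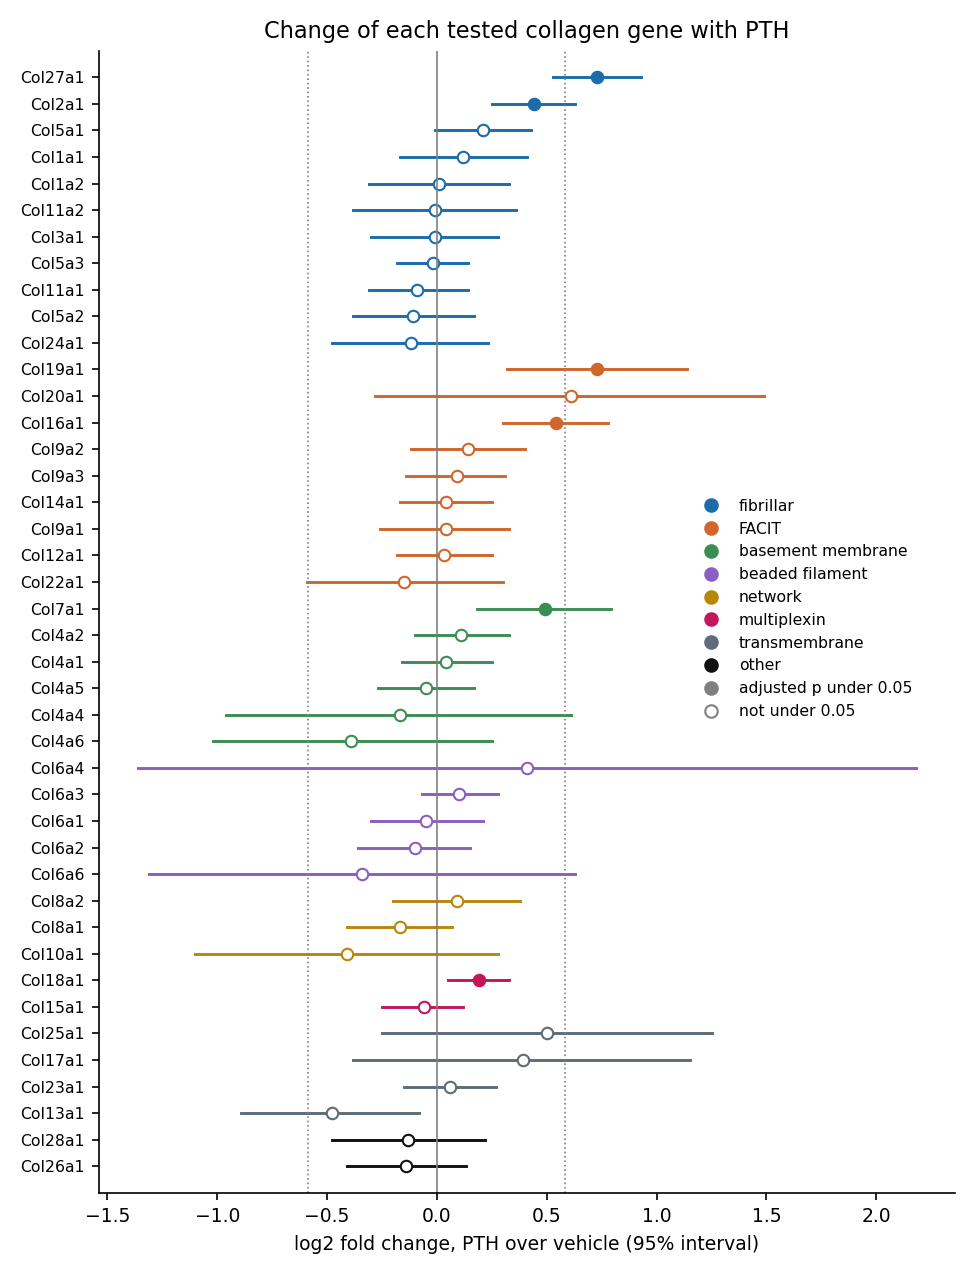
Log2 fold change of PTH over vehicle (horizontal axis) for the 42 tested collagen genes, colored by class, with 95% confidence intervals as bars and filled points where the adjusted p was under 0.05. Dotted lines mark a change of 1.5-fold either way. The 6 filled points lie to the right of 0, between 0.19 (Col18a1) and 0.73 (Col27a1 and Col19a1), and the widest interval is that of Col6a4, a gene with 0 to 39 counts per sample.

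To compare levels between genes, counts were divided by the length of the longest annotated transcript and scaled to 1000000 per sample over the genes tested. On this scale, Col1a1 was the most abundant of all tested genes, at 19819.6, Col1a2 was at rank 3, with 16761, and Col3a1 was at rank 13, with 4291. Col1a1 and Col1a2 overlapped in their ranges over the 8 samples, and Col3a1 was separate from both and from the chains after it. Next came the network chain Col8a1 (1296), the beaded filament chain Col6a1 (1233), Col5a2 (1065), Col6a2 (970.4), the FACIT chain Col12a1 (802) and Col5a1 (688), and the ranges over the 8 samples overlapped between each of these and the next. Col8a2 (459.6), Col11a1 (459), Col16a1 (365), Col4a1 (314), Col4a2 (262) and Col6a3 (218) followed, again with ranges that overlapped from each to the next. Of other chains known from cartilage, Col11a2 was at 197 and Col2a1 at 131, and the lowest tested chain was Col6a4 at 0.107. The order of the leading chains depended on the length used: with the median length of protein-coding transcripts, which include short fragments, Col3a1 was at 20272, Col1a2 at 18101 and Col1a1 at 12409.

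**Figure D2:**
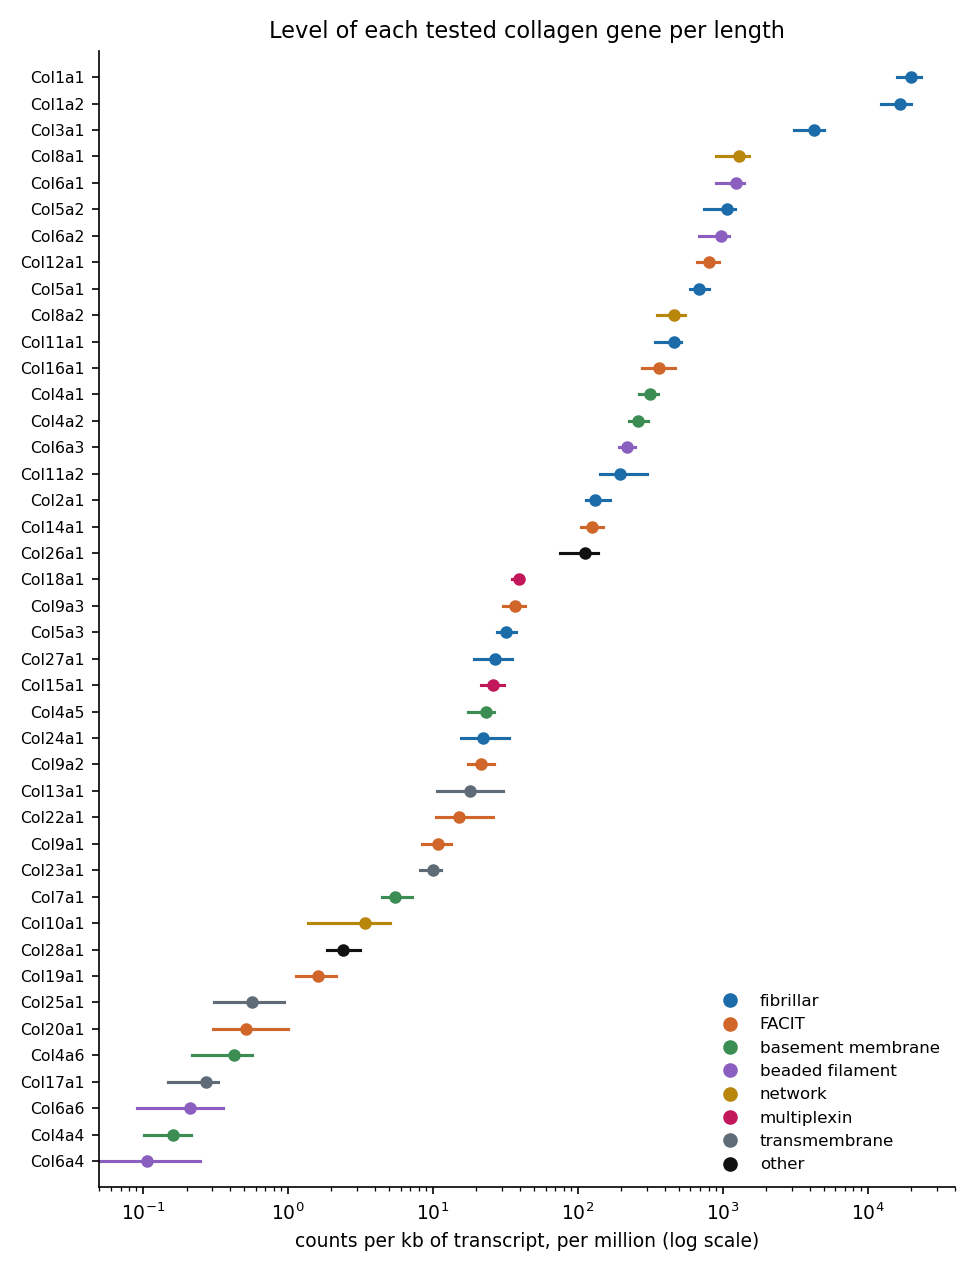
Mean level over the 8 samples of each tested collagen gene per kb of its longest transcript (log scale), with the lowest and highest sample as a bar. Levels run from 19819.6 for Col1a1 to 0.107 for Col6a4, whose lowest sample is at 0 and is drawn to the edge of the axis.

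The share of all counts taken by collagen genes was 11.6%, 11.1%, 11.7% and 11.9% with vehicle and 12.8%, 9.7%, 9.69% and 11.7% with PTH. The PTH group spanned the vehicle group on both sides, with replicate 1 above all vehicle samples and replicates 2 and 3 below them. Col1a1, Col1a2 and Col3a1 together made up 79.0% to 81.8% of the collagen counts in every sample, and the fibrillar class made up 85.6% to 88.3%. The FACIT class held 3.6% to 4.79%, the beaded filament class 3.87% to 4.58%, the network class 2.7% to 3.34% and the basement membrane class 1.16% to 1.53%.

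The chains of type I collagen did not pass the test. Col1a1, which encodes the chain present in a pair of copies in each type I molecule, was at 43385, 41640.2, 45578 and 46843 CPM with vehicle and at 58075, 42308, 41751 and 50559 CPM with PTH. The log2 fold change of 0.12 (standard error, SE, 0.132) had an adjusted p = 0.492 and an interval from 0.89-fold to 1.33-fold. Col1a2, the partner chain, was at 34716, 32701, 36118 and 36746 CPM with vehicle and at 44931, 28836, 29699.6 and 37609 CPM with PTH. In both genes, PTH replicate 1 was the highest of the 8 samples, PTH replicates 2 and 3 were among the 3 lowest, and the groups overlapped. The log2 fold change of Col1a2 was 0.01 (interval 0.804-fold to 1.26-fold, adjusted p = 0.97).

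Col3a1, the chain of type III collagen that mixes with type I in soft matrix, was at 9753, 9579.5, 9752 and 8492 CPM with vehicle and at 11666, 7512, 8266 and 9917 CPM with PTH. Its groups overlapped, with PTH replicate 1 highest and PTH replicate 2 lowest, and the log2 fold change was -0.01 (interval 0.812-fold to 1.22-fold, adjusted p = 0.966). The entry of the table that holds Col3a1 shares its assembled locus with another symbol, AC125167.1. Among collagen genes of at least 50 CPM, the median coefficient of variation was 8.85% with vehicle and 15.1% with PTH, and it was higher with PTH in 14 of 26 genes and lower in 12. PTH replicate 1, also the deepest library, held the highest value of its group in 19 of 26. Vehicle replicate 1 held the highest value of its group in 17 of 26.

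Type V collagen, which nucleates type I fibrils and limits their width, is assembled mainly from Col5a1 and Col5a2. Col5a1 was at 2272, 2101, 2161 and 1949 CPM with vehicle and at 2855, 2186, 2199 and 2551 CPM with PTH. The groups overlapped only through PTH replicates 2 and 3, which lay below vehicle replicate 1, and the log2 fold change was 0.21 (adjusted p = 0.117). Without PTH replicate 2 it was 0.27 (adjusted p = 0.0419), and that was the only 1 of 17 alternatives in which Col5a1 was called. Without PTH replicate 1 it was 0.12 (adjusted p = 0.262). Col5a2 was at 2823, 2831, 2929 and 2866 CPM with vehicle and at 3265, 2142, 2286 and 2932 CPM with PTH. Its vehicle samples lay close together and inside the range of the PTH samples, and the log2 fold change was -0.11 (adjusted p = 0.513). Col5a3, a chain of lower abundance, had a log2 fold change of -0.02 (interval 0.882-fold to 1.1-fold).

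**Figure D3:**
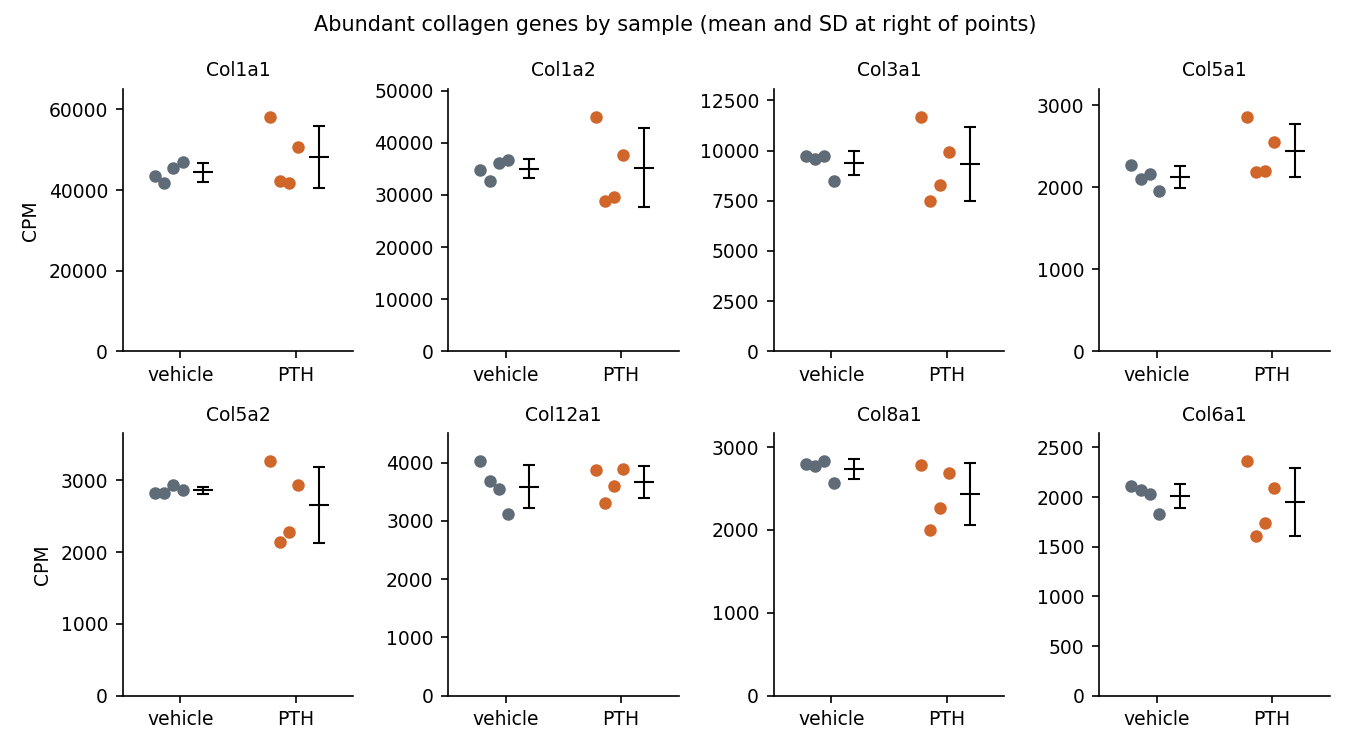
CPM of 8 abundant collagen genes by sample, as points in the order of replicates 1 to 4, with the mean and SD of each group beside them. In every panel the vehicle and PTH points overlap, and the PTH points are the more widely spread in all panels except that of Col12a1.

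The fibrillar class had 11 genes, all tested, of which 2 rose and 0 fell, against 23.3% higher and 22.5% lower among all genes tested, and its median log2 fold change was -0.01. Col27a1, a fibrillar chain with a shortened triple helix that is known from cartilage, showed the largest increase of the class. It was at 62.9, 68.3, 63.6 and 52.4 CPM with vehicle and at 93.1, 117, 98.0 and 103 CPM with PTH, and every PTH sample was above every vehicle sample. The log2 fold change was 0.73 (SE 0.0926, adjusted p = 4.74e-05), and it stayed between 0.61 and 0.77 and past the threshold in all 17 alternatives tried for single genes. Col27a1 lies on chromosome 4 (63214004 to 63334991, plus strand, GRCm38), and the microRNA gene Mir455 is assigned to the same assembled locus.

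Col2a1, the chain of type II collagen of cartilage, was at 225, 223, 231 and 224 CPM with vehicle and at 318, 297, 258 and 354 CPM with PTH. The vehicle samples were nearly level, and the lowest PTH sample, replicate 3, was above all of them. Col2a1 rose by 0.44 on the log2 scale (SE 0.0879, adjusted p = 0.0014) and kept its call in all 17 alternatives. Its usual partners in cartilage fibrils did not pass the test. Col11a1 had a log2 fold change of -0.09 (adjusted p = 0.525), Col11a2 of -0.01 (adjusted p = 0.962) and Col24a1, a chain found in developing bone, of -0.12 (adjusted p = 0.568).

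Chondrocyte markers other than collagens were read beside Col2a1 and Col27a1. Of 9 listed markers, 7 were in the table, 6 were tested and 1 rose, against 23.3% of all genes tested. It was Acan, the gene for the cartilage proteoglycan aggrecan. Acan was at 10, 11.3, 13.6 and 10.4 CPM with vehicle and at 25.9, 19.1, 20.5 and 27.2 CPM with PTH, without overlap (log2 fold change 1.03, adjusted p = 6.45e-05). Sox9, the factor that drives the cartilage program, was at 78.1, 74.3, 68.2 and 67.9 CPM with vehicle and at 74.1, 76.7, 75.2 and 87.4 CPM with PTH, and its change of 0.12 did not pass the test (adjusted p = 0.214). Hapln1 and Comp had log2 fold changes of 0.05 and -0.02, neither past the test, and Matn1 was too low to be tested. The summed level of the list was 229 to 289.9 CPM with vehicle and 258 to 310.4 CPM with PTH. The part of cartilage-like cells in the Col2a1 and Col27a1 results was not tested, and in bulk samples more or fewer cells of a type and more or less RNA per cell cannot be told apart.

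The FACIT class had 9 genes, all tested, of which 2 rose, a share near the 23.3% of all genes tested, and 0 fell, with a median log2 fold change of 0.09. Col16a1, a FACIT chain of fibroblasts and cartilage matrix, was at 690.3, 639, 622 and 518 CPM with vehicle and at 1019, 906, 746 and 920.1 CPM with PTH. The groups did not overlap, although PTH replicate 3 was only slightly above vehicle replicate 1. Col16a1 rose by 0.54 (SE 0.11, adjusted p = 0.0016). Per kb, it had the highest level of the 6 genes that rose.

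Col19a1, a rare FACIT chain, was at 3.06, 2.46, 2.25 and 2.78 CPM with vehicle and at 3.28, 4.75, 5.17 and 4.33 CPM with PTH. PTH replicate 1 stood just above the highest vehicle sample and the other PTH samples well above it, and the log2 fold change was 0.73 (SE 0.187, adjusted p = 0.00705). The gene rests on few reads, with 107 to 138 counts per vehicle sample and 158 to 198 counts per PTH sample. Col16a1 and Col19a1 kept their calls in all 17 alternatives.

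Col12a1, the FACIT chain with the most counts, binds type I fibrils in tendon and periosteum. It was at 4022, 3679, 3542 and 3118 CPM with vehicle and at 3877, 3312, 3591 and 3894 CPM with PTH, with the PTH range inside the vehicle range. Its log2 fold change was 0.03 (interval 0.88-fold to 1.19-fold, adjusted p = 0.821). Col14a1, its close relative, did not pass the test either, with a log2 fold change of 0.04 (interval 0.889-fold to 1.19-fold). The type IX chains that decorate cartilage fibrils had log2 fold changes of 0.04 for Col9a1, 0.14 for Col9a2 and 0.09 for Col9a3, none past the test. Col9a3 shares 234 exon bases with Tcfl5 on the other strand, and since the strand setting of the counts is not given, reads there cannot be assigned with certainty. Col20a1 had a log2 fold change of 0.61 (interval 0.825-fold to 2.81-fold, adjusted p = 0.245) at 24 to 72 counts per sample, in a locus that also holds 9230112E08Rik, and Col22a1 of -0.15 (adjusted p = 0.585).

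**Figure D4:**
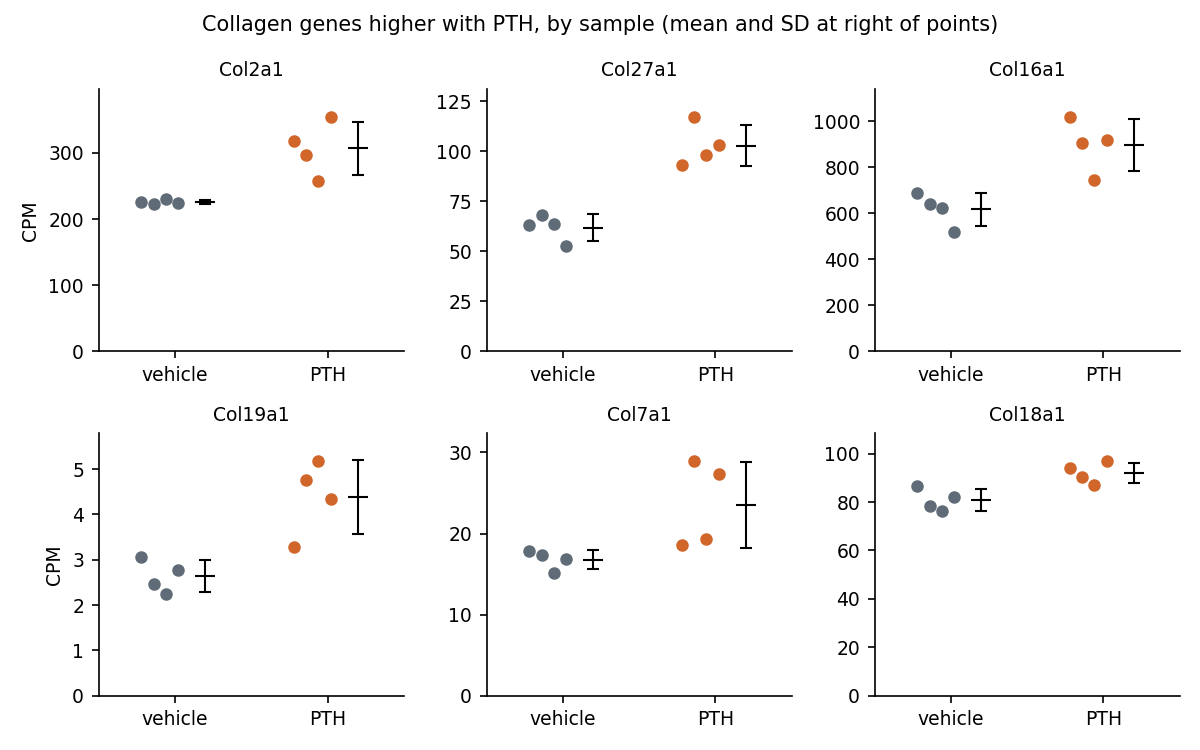
CPM by sample of the 6 collagen genes that rose with PTH, as points in the order of replicates 1 to 4, with the mean and SD of each group beside them. In each panel all 4 PTH points lie above all 4 vehicle points, by a wide margin for Col27a1 and by little for Col18a1 (87.0 CPM for the lowest PTH sample and 86.7 CPM for the highest vehicle sample).

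The basement membrane class, in which the anchoring fibril chain Col7a1 was included, had 7 genes, of which 6 were tested, 1 rose and 0 fell. Among all genes tested, 23.3% were higher and 22.5% lower. The chains that make up the common type IV collagen did not pass the test. Col4a1 was at 883, 816, 823 and 695 CPM with vehicle and at 911, 759.7, 773 and 873 CPM with PTH. Col4a2, its partner, was at 731, 646, 647 and 535 CPM with vehicle and at 747, 633, 655 and 730.3 CPM with PTH. In both genes vehicle replicate 4 was the lowest of the 8 samples and the groups overlapped. Their log2 fold changes were 0.04 (adjusted p = 0.727) and 0.11 (adjusted p = 0.38). Col4a1 and Col4a2 lie head to head on chromosome 8 and their annotated exons overlap by 22 bases.

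Col4a5 and Col4a6, the minor type IV chains of the X chromosome, which lie head to head 1308 bases apart, had log2 fold changes of -0.05 (adjusted p = 0.717) and -0.39 (adjusted p = 0.302). Col4a4 had 18 to 37 counts per sample and a log2 fold change of -0.17 (interval 0.516-fold to 1.52-fold). Its neighbor Col4a3, 71 bases away on the opposite strand, had 2 to 13 counts per sample and was not tested. Of 8 endothelial markers, 6 were tested, with 1 higher (Kdr) and 1 lower (Tek), against 23.3% and 22.5% of all genes tested. Emcn was at 0 in all samples. The summed level of the endothelial list was 9.19 to 10.5 CPM with vehicle and 8.96 to 10.8 CPM with PTH. The part of endothelial cells in the type IV results was not tested.

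Col7a1, the chain of the fibrils that anchor epithelium to the matrix beneath, was at 17.8, 17.4, 15.1 and 16.8 CPM with vehicle and at 18.6, 28.9, 19.3 and 27.3 CPM with PTH. PTH replicates 2 and 4 were far above the vehicle samples, whereas PTH replicates 1 and 3 exceeded the highest of them only slightly. Col7a1 rose by 0.49 (SE 0.14, adjusted p = 0.0135), and among 17 alternatives the call was lost only when library totals were used without TMM factors (0.37, adjusted p = 0.0697). Of 5 epithelial markers, 1 was tested and not called, and Krt14 was at 0 in all samples. The summed level of the epithelial list was 0.625 to 1.57 CPM with vehicle and 0.183 to 1.26 CPM with PTH. The part of epithelial cells in the Col7a1 result was not tested. The microRNA gene Mir711 lies within the Col7a1 locus.

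The beaded filament class had 6 genes, of which 5 were tested, and 0 passed the test, against 45.8% of all genes tested. Col6a1, Col6a2 and Col6a3 join in the main form of type VI collagen. Col6a1 was at 2109, 2074, 2034 and 1833 CPM with vehicle and at 2359.6, 1611, 1742 and 2088 CPM with PTH. Col6a2 was at 2024, 1971, 1976 and 1753 CPM with vehicle and at 2172, 1474, 1623 and 1933 CPM with PTH. For both, PTH replicate 1 was the highest and PTH replicate 2 the lowest of the 8 samples. Col6a3, the long chain, was at 938, 812, 834 and 769 CPM with vehicle and at 919.7, 841, 877 and 962 CPM with PTH, and these groups overlapped too. Log2 fold changes were -0.05 (adjusted p = 0.778), -0.1 (adjusted p = 0.51) and 0.1 (adjusted p = 0.33). The alternative chains had few counts. Col6a4 had 0 to 39 counts per sample and an interval from 0.391-fold to 4.54-fold, Col6a6 had 14 to 52 counts and an interval from 0.403-fold to 1.55-fold, and Col6a5 had 0 to 5 counts and was not tested. Col6a5 and Col6a6 also share a nearly identical stretch of 572 bases, so reads may be split between them.

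The network class had 3 genes, and 0 passed the test, against 45.8% of all genes tested. Col8a1, which forms hexagonal networks with Col8a2, was at 2795, 2769, 2828 and 2565 CPM with vehicle and at 2789, 1995, 2265 and 2693 CPM with PTH. Col8a2 was at 871, 769, 759 and 642 CPM with vehicle and at 995, 659, 699 and 875 CPM with PTH. The groups overlapped for both chains, and the log2 fold changes were -0.17 (adjusted p = 0.225) for Col8a1 and 0.09 (adjusted p = 0.624) for Col8a2. Col10a1, the marker of hypertrophic chondrocytes, had 62 to 279 counts per sample, and its log2 fold change was -0.41 (interval 0.466-fold to 1.21-fold, adjusted p = 0.314).

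The multiplexins Col15a1 and Col18a1 carry long sugar chains and release endostatin-type fragments. Col18a1 was at 86.7, 78.2, 76.4 and 82.0 CPM with vehicle and at 93.9, 90.5, 87.0 and 96.8 CPM with PTH, with the groups separated only narrowly. Col18a1 rose by 0.19 (SE 0.0639, adjusted p = 0.0304), the smallest change that passed and the one nearest the threshold. Leaving out single libraries ended the call without vehicle replicate 2 (0.16, adjusted p = 0.124), vehicle replicate 3 (0.16, 0.107), vehicle replicate 4 (0.19, 0.0675), PTH replicate 1 (0.18, 0.0529) or PTH replicate 4 (0.16, 0.094). No filter on low counts (0.15, adjusted p = 0.139) and library totals without TMM factors (0.06, adjusted p = 0.446) ended it as well. Col15a1 had a log2 fold change of -0.06 (interval 0.843-fold to 1.09-fold).

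The transmembrane class had 4 genes, and 0 passed the test, against 45.8% of all genes tested. Col13a1, a chain of the cell surface that is found at muscle and nerve contacts, lay just outside the threshold, at 23.9, 17.5, 27.3 and 34.7 CPM with vehicle and at 20.7, 16.5, 14.9 and 21.8 CPM with PTH. Vehicle replicates 1, 3 and 4 were above all PTH samples, whereas vehicle replicate 2 lay among them. The log2 fold change was -0.48 (SE 0.185, adjusted p = 0.0507). It was called lower by DESeq2 (adjusted p = 0.0285), without vehicle replicate 2 (0.0085), PTH replicate 1 (0.0394) or PTH replicate 4 (0.0414) and in 3 other alternatives, and without vehicle replicate 4 the change was -0.31 (adjusted p = 0.172). Col23a1, which had the highest mean CPM of the class, was at 21.7, 21.6, 23.4 and 21.7 CPM with vehicle and at 24.7, 20.9, 20.2 and 26.3 CPM with PTH, and its log2 fold change was 0.06 (adjusted p = 0.636). Col17a1, of epithelial anchoring plaques, and Col25a1, of motor nerve targets, had few counts, with intervals from 0.771-fold to 2.22-fold and from 0.842-fold to 2.38-fold. Of the 4 Schwann cell markers read beside the nerve-associated chains, 3 were tested and 0 passed, against 45.8% of all genes tested. Their summed level was 17.4 to 20.5 CPM with vehicle and 16.0 to 21.8 CPM with PTH. The part of Schwann cells in the collagen results was not tested.

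The 2 remaining genes did not pass the test. Col26a1 was at 144, 137, 129 and 108 CPM with vehicle and at 140.3, 90.5, 121 and 118 CPM with PTH, and its log2 fold change was -0.14 (adjusted p = 0.371). Col28a1, a chain associated with peripheral nerve, had a log2 fold change of -0.13 (interval 0.717-fold to 1.17-fold, adjusted p = 0.546).

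Vehicle replicate 4 stood apart from the other vehicle samples in several collagen genes. It held the highest of the 8 values for Col11a2 (654 CPM, with the other vehicle samples between 350.2 and 465), Col22a1 (82.0, others 38.5 to 55.6), Col24a1 (86.0, others 50.8 to 65.7) and Col13a1 (34.7, others 17.5 to 27.3). It held the lowest vehicle value for Col3a1, Col4a1, Col4a2, Col12a1 and Col16a1. In the same sample Ibsp, a mineralized matrix protein, was at 2073 CPM (other vehicle samples 1086 to 1308), Dmp1, of osteocytes and late osteoblasts, at 26.5 (13.4 to 18.3) and Phex at 57.5 (32.4 to 39.4). The part of these osteoblast genes in the Col13a1 result was not tested, and these observations were made after the values were seen.

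The marker lists that follow are to be read against the 23.3% of all genes tested that were higher and the 22.5% that were lower. Among the 11 osteoblast markers, all tested, 0 rose and 4 fell, among them the transcription factors Sp7 (log2 fold change -1.78) and Runx2 (-0.33) and the matrix gene Dmp1 (-1.12). Runx2 and Sp7 are the factors that set the osteoblast program, in which Col1a1 is a known target. The summed level of the list was 18647 to 21928 CPM with vehicle and 15775 to 22575 CPM with PTH. Of 5 tendon markers, 2 fell (Scx and Mkx), with a sum of 2854 to 3621 CPM with vehicle and 2495 to 3863 CPM with PTH. Of 7 adipocyte markers, 6 were tested and 1 fell (Pparg), with a sum of 417 to 481 CPM with vehicle and 433 to 492 CPM with PTH, and Lep was too low to be tested. Of 10 macrophage markers, 2 rose (Lyz2 and Cd14), a share near that of all genes. The median log2 fold change of the macrophage list was nevertheless 0.33, against 0.0 for all genes. The sum of the list was 1053 to 1710 CPM with vehicle and 1643 to 2105 CPM with PTH. Most of it was Lyz2, with a mean of 914 CPM with vehicle and 1417 CPM with PTH. The part of any of these cell types in the collagen results was not tested.

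The balance between chains that join in the same molecule or fibril was compared within each sample, which does not depend on the scaling between samples. Ratios are given per kb for 7 pairs, and their log2 values were tested by two-sided exact permutation tests over the samples, in which 4 against 4 samples allow no p below 0.0286. After Benjamini-Hochberg adjustment over the 7 pairs, 0 ratios passed 0.05. With that limit on p, no ratio could pass unless most of the pairs had reached it. The result therefore does not show that the ratios were unchanged. The 3 pairs whose groups did not overlap reached the smallest possible p. The ratio of Col5a1 to Col5a2 was 0.634, 0.585, 0.582 and 0.536 with vehicle and 0.689, 0.804, 0.758 and 0.686 with PTH. All 4 PTH samples were higher, with a log2 difference of 0.33 (exact p = 0.0286, adjusted p = 0.0667), the largest of the 7.

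The ratio of Col1a1 to Col1a2, which is read against the composition of type I collagen, was 1.13, 1.15, 1.14 and 1.15 with vehicle and 1.17, 1.32, 1.27 and 1.21 with PTH. The vehicle samples were nearly identical and all 4 PTH samples were higher, with a log2 difference of 0.12 (exact p = 0.0286, adjusted p = 0.0667). The ratio of Col6a1 to Col6a2 was also higher in all 4 PTH samples, at 1.25 ± 0.0115 with vehicle and 1.3 ± 0.0101 with PTH (SD, n = 4, log2 difference 0.06, exact p = 0.0286, adjusted p = 0.0667). The ratio of Col8a1 to Col8a2 was 3.08 ± 0.278 with vehicle and 2.57 ± 0.153 with PTH (SD, n = 4, log2 difference -0.26, exact p = 0.0571, adjusted p = 0.08), and that of Col4a1 to Col4a2 was 1.23 ± 0.0372 and 1.17 ± 0.0154 (log2 difference -0.07, exact p = 0.0571, adjusted p = 0.08). In both pairs the groups overlapped. Col3a1 to Col1a1 was at 0.227 ± 0.0233 with vehicle and 0.206 ± 0.0113 with PTH, and Col6a3 to Col6a1 was at 0.169 ± 0.00901 and 0.19 ± 0.0238 (SD, n = 4, exact p = 0.2 and adjusted p = 0.2 for both). The level of a ratio depended on the transcript length used, whereas its difference between groups did not, since the lengths are the same in every sample. With the median length of protein-coding transcripts, a choice made after the data were seen, Col1a1 to Col1a2 was at 0.661 with vehicle and 0.72 with PTH, Col3a1 to Col1a1 at 1.71 and 1.55, and Col5a1 to Col5a2 at 1.04 and 1.31, so these 3 ratios changed sides of 1.

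**Figure D5:**
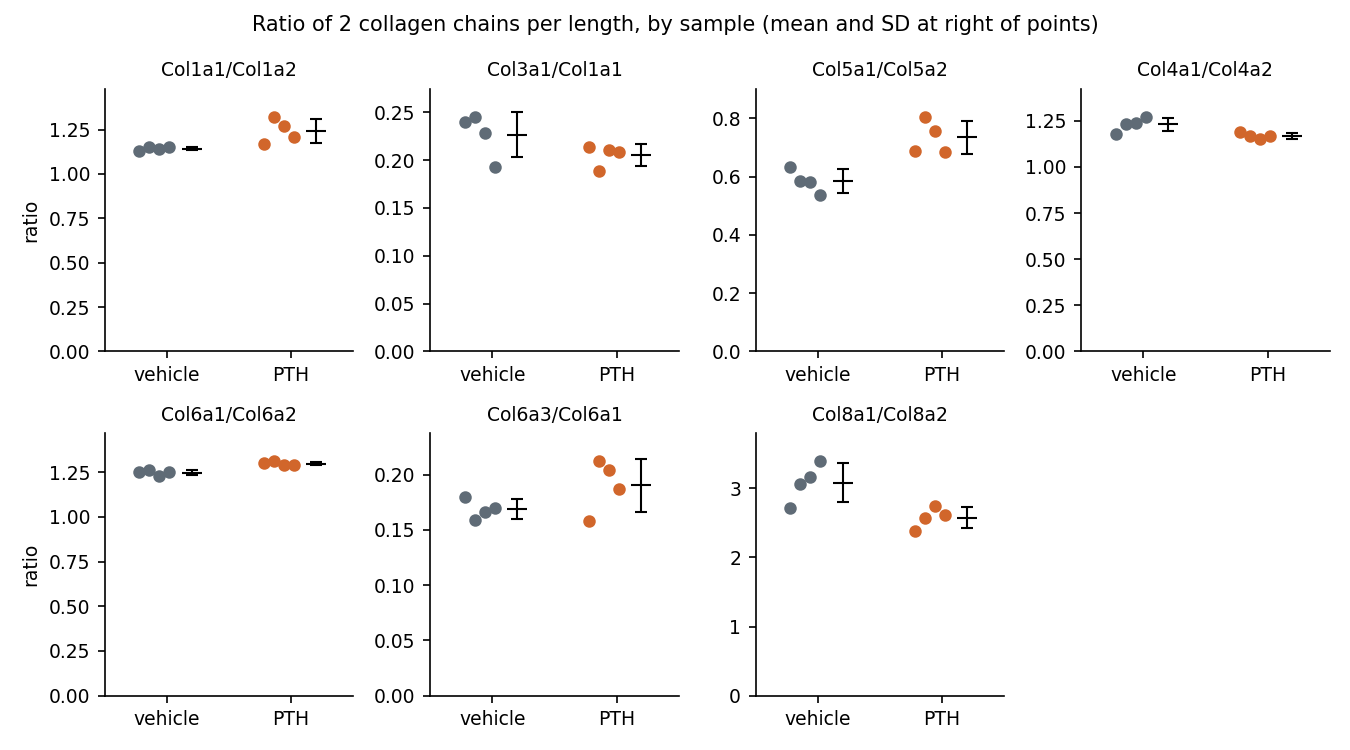
Ratio of the levels per kb of 2 collagen chains in each sample, as points in the order of replicates 1 to 4, with the mean and SD of each group beside them. The PTH points lie above all vehicle points for Col1a1/Col1a2, Col5a1/Col5a2 and Col6a1/Col6a2 and overlap them in the other panels.

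Genes that modify, secrete, process, crosslink or bind collagen were read from the same test. Of 40 listed genes, 39 were tested (Tll2 was at 0 in all samples), 8 rose and 5 fell, and the median log2 fold change was -0.03. Together, 13 of 39 changed, against 45.8% of all genes tested. The 4 largest increases were those of a receptor, a pair of hydroxylases and a secretion factor. Ddr2, the receptor tyrosine kinase for fibrillar collagen, was at 452, 418, 456 and 409.8 CPM with vehicle and at 459.5, 837, 765 and 525 CPM with PTH. PTH replicates 2 and 3 were far above the vehicle samples and replicate 1 only just, and the log2 fold change was 0.57 (adjusted p = 0.0118). Plod2, the lysyl hydroxylase of the telopeptides, rose by 0.54 (adjusted p = 0.00027), from 141 ± 2.43 to 205 ± 25.9 CPM (mean ± SD, n = 4, as for the genes that follow). Mia3, which loads procollagen into transport carriers, rose by 0.48 (adjusted p = 8.6e-05), from 91.1 ± 4.07 to 127 ± 8.19 CPM. P4ha2, a catalytic subunit of prolyl hydroxylase, rose by 0.44 (adjusted p = 0.00827), from 95.2 ± 17.7 to 129 ± 12.1 CPM, and vehicle replicate 4 (121 CPM) overlapped the PTH samples (115 to 143 CPM).

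The 4 largest decreases were those of a crosslinking enzyme, an ion channel, a collagen receptor and a further crosslinking enzyme. Loxl4, of the lysyl oxidase family, was at 36.1, 34.9, 45.8 and 58.7 CPM with vehicle and at 30.0, 21.6, 22.8 and 26.4 CPM with PTH, and fell by 0.8 in log2 terms (adjusted p = 0.00147). Tmem38b, a channel of the endoplasmic reticulum whose loss disturbs collagen modification, fell by 0.62 (adjusted p = 0.000199), from 14.6 ± 1.33 to 9.48 ± 0.326 CPM. Neither gene's groups overlapped. Itga2, the subunit of a collagen-binding integrin, fell by 0.41 (adjusted p = 0.0178), from 10.4 ± 1.16 to 7.79 ± 1.01 CPM. Lox, the main crosslinking enzyme of collagen and elastin, was at 2125, 2259, 2321 and 2303 CPM with vehicle and at 2042, 1384, 1648 and 1912 CPM with PTH, without overlap (log2 fold change -0.37, adjusted p = 0.0189).

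Bmp1 (0.33), Itga11 (0.26), Plod3 (0.26) and Ppib (0.23) also rose, and Ddr1 fell by 0.33 on the log2 scale. Ddr1 and Ddr2, the paired discoidin receptors, thus had changes of opposite sign, each past the test. The chaperone Serpinh1 (HSP47) had a log2 fold change of -0.14 (adjusted p = 0.352), P4hb of 0.01 and P4ha1 of -0.48 (adjusted p = 0.0536). The number of listed genes that fell was 14 without PTH replicate 1 and 3 without vehicle replicate 3, and the number that rose was 5 without vehicle replicate 4. The shares of all genes called in these fits are not given here, so whether the list moved with the whole table cannot be read from these counts. With library totals and no TMM factors, 5 rose and 17 fell, against 17.3% higher and 32.0% lower among all genes tested.

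Scaling set the balance of higher and lower calls in the table as a whole. With library totals and no TMM factors, an alternative added after the data were seen, 17.3% of all genes tested were higher and 32.0% lower (49.3% in either direction), and the median log2 fold change moved to -0.13 for all genes and to -0.1 for collagen genes. On that scale 4 collagen genes were higher (Col27a1, Col19a1, Col16a1 and Col2a1) and 2 were lower, Col13a1 and Col8a1 (-0.3, adjusted p = 0.0167).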

How the data were processed

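RNA from 8 cultures of calvarial osteoblasts (4 PTH, 4 vehicle) had been sequenced from poly(A) libraries. The authors aligned reads to GRCm38 with HISAT2 and assembled transcripts with StringTie, whose companion script turned transcript coverage into the deposited counts per gene, which are whole numbers without scaling between samples. The annotation version, the read-length setting and the strand setting are not given in the sources used here, and the authors tested with DESeq2. All 8 columns of counts were used, and 0 were left out.

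Counts were tested in R 4.3.3 with edgeR 4.0.16 (TMM, genes kept by filterByExpr at a count of 10 and a total of 15, two-sided quasi-likelihood F-test, Benjamini-Hochberg adjustment over 16736 genes, threshold 0.05). DESeq2 1.42.0 was an alternative. Total counts between 33605610 and 56090654 per sample leave the precision to the spread between samples except in genes of few counts. Ratios of chains were compared by exact permutation tests after adding 0.5 to counts. Positions, exons and transcript lengths came from GENCODE M21, which matched all 44 collagen genes, similar sequences (at least 95% identity over 150 bases) from blastn 2.17.0, and promoters from RefSeq. Protein sequences were not used here. Python 3.11.15 was used for tables (pandas 2.3.3, NumPy 2.4.6) and figures (matplotlib 3.10.9).

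The collagen genes, the other gene lists and the tests were chosen with earlier results of these data known. Every tested collagen gene is named. Values of each sample are given for chains of a compared pair and, in each class, for the member with the highest mean CPM and the called members with the largest increase and decrease, and also for Col2a1, Col16a1 and Col13a1, which were added after their values were seen. Of the collagen synthesis and receptor list, the 4 largest increases and decreases that passed the test are named among genes of at least 1 CPM, and a few others were added after their values were seen. Alternatives were DESeq2, edgeR with the size factors of DESeq2, all genes with any count, a block for the sample number, each sample left out in turn, counts summed by symbol, counts halved for reads of 150 in place of the default of 75 bases, an offset for transcript length, scaling without the 10 most abundant genes and a minimum log2 fold change of 1. Library totals without TMM factors were added after the data were seen.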

Additional observations from a re-analysis of the deposited data

Results flagged for a closer look

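In 98 groups of 4 samples (the 42 tested collagen genes and the 7 chain ratios in each treatment), a sample was marked where its gap to the nearest other sample, divided by the range of the group, exceeded Dixon's 95% critical value for 4 samples. Chance marks about 1 in 20 groups, and 3 were marked. Col3a1 was at 8492 CPM in vehicle replicate 4, below the other vehicle samples at 9579.5 to 9753 CPM (gap over range 0.862). Col20a1 was at 2.17 CPM in PTH replicate 2, above the other PTH samples at 0.835 to 1.02 CPM (0.861). Col23a1 was at 23.4 CPM in vehicle replicate 3, above the other vehicle samples at 21.6 to 21.7 CPM (0.944). None of these genes passed the test between PTH and vehicle.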

How the results depend on the processing

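The number of collagen genes higher with PTH was 6, and it lay between 4 and 7 in the other fits, apart from a minimum log2 fold change of 1, which left 0. The number lower was 0, and it was 1 with DESeq2, with the replicate block and with scaling without the 10 most abundant genes (Col13a1 in each), 2 with library totals and no TMM factors, and 0 to 1 when single samples were left out. For the synthesis and receptor list, 8 rose and 5 fell. The number that rose was 5 without the filter on low counts, 5 with library totals, 0 with a minimum log2 fold change of 1 and 5 to 9 when single samples were left out. The number that fell was 17 with library totals, 0 with the minimum and 3 to 14 when single samples were left out. With the replicate block, 6 collagen genes were higher and 1 lower, and 6 and 7 genes of the list. For most of these fits the share of all genes called is not given. Their counts describe how stable the calls were and are not read against all genes. Deviations of samples with the same number correlated across genes by -0.1047 to 0.0483. With 4 samples in a group, these values cannot show whether samples of the same number shared a preparation. For chain ratios, leaving out a sample allows no exact p below 0.0571, and the log2 differences then lay between 0.09 and 0.15 for Col1a1/Col1a2, 0.28 and 0.37 for Col5a1/Col5a2 and 0.05 and 0.06 for Col6a1/Col6a2. The difference in the collagen share of counts was -0.614 percentage points and lay between -1.23 and -0.189 when single samples were left out. Of 602 values of single genes under alternatives that did not pass the test in either fit, 52 had the other sign. The cause of these differences was not tested. Log2 fold changes depended on transcript length in the table as a whole, with a median of 0.22 in the shortest of 5 equal bins of genes and -0.07 to -0.03 in the others, and collagen transcripts are 2.78 to 11.5 kb long. Among the 36 collagen genes that did not pass the test, the 95% interval reached beyond 1.5-fold for 10, which were Col4a4, Col4a6, Col6a4, Col6a6, Col10a1, Col13a1, Col17a1, Col20a1, Col22a1 and Col25a1.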
